A study of Mus musculus with 6 samples.

Results

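Transcripts of 10 genes for sterol transfer proteins were measured in regulatory T cells (Tregs) of mice with a conditional knockout of the SREBP2 gene and of wild-type mice. The genes were chosen by symbol and encode 8 members of the oxysterol-binding protein family (Osbp, Osbpl2, Osbpl3, Osbpl5, Osbpl7, Osbpl8, Osbpl9 and Osbpl11) and 2 of the GRAMD1 family (Gramd1a and Gramd1b). All 10 were among the 24421 gene symbols of the count table, and all 10 passed the filter on low counts that left 11932 genes to test. Tregs are a Foxp3-expressing class of CD4 T cell that restrains immune responses, and they came from mouse spleen and lymph nodes. Srebp2cKO libraries (replicates 6, 7 and 8) had the labelled genotype Srebp2FL/FL-Foxp3YFPCRE+/-, which combines floxed alleles of the SREBP2 gene with Cre recombinase and YFP, a yellow fluorescent protein, expressed from Foxp3. Srebp2WT libraries (replicates 1, 3 and 5) had the genotype Srebp2WT/WT-Foxp3YFPCRE+/+. Both genotypes therefore carried Cre, but at a different dose, and Cre dose and SREBP2 loss cannot be told apart. Cre was driven by Foxp3, an X-linked gene, so a +/- female can hold Tregs that do not express it. The sources used here do not give age, the sort gate or whether libraries came from separate animals. P-values therefore measure only the spread between these samples, and that spread may be technical.

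Cholesterol moves between membranes largely without vesicles, through proteins that carry it across narrow contacts between organelles. Oxysterol-binding protein and its relatives (ORPs) share a ligand domain that holds a sterol or a phospholipid and can also bind the phosphoinositide PI4P, so that many of them swap one lipid for the other. Most ORPs anchor at the endoplasmic reticulum through VAP proteins or their own tail. GRAMD1 proteins, also called Asters, sit in the endoplasmic reticulum and draw accessible cholesterol from the plasma membrane, which lowers SREBP2 processing. SREBP2 itself turns on genes of cholesterol synthesis and uptake when sterol in the endoplasmic reticulum is low.

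Total counts ranged from 13918321 to 17249898 per Srebp2cKO library and from 14694290 to 15547538 per Srebp2WT library. Srebf2, the gene for SREBP2, had 187, 197 and 183 counts in Srebp2cKO libraries and 3043, 2980 and 2548 in Srebp2WT libraries (log2 fold change -3.91, SE 0.11, adjusted p = 1.49e-08). Fold changes here are Srebp2cKO over Srebp2WT from edgeR's quasi-likelihood test, and adjusted p-values are Benjamini-Hochberg values over the 11932 tested genes. A gene was called at an adjusted p under 0.05. The 8 Treg markers summed to 4513 to 4710 CPM (counts scaled to library size) in Srebp2cKO and 4653 to 4904 CPM in Srebp2WT, and Foxp3 averaged 435 ± 27.0 TMM-scaled CPM in Srebp2cKO and 454 ± 11.5 in Srebp2WT. Of these 8 markers, Il2ra was called higher (0.41, adjusted p = 0.0101) and Tnfrsf18 lower (-0.39, adjusted p = 0.0438). Libraries of the genotypes did not overlap for 5 of the 8, against 31.5% of all tested genes. Of these, Ctla4 (0.23, adjusted p = 0.0897), Ikzf2 (-0.26, adjusted p = 0.0645) and Cd3e (-0.09, adjusted p = 0.434) did not pass. Of all tested genes, 283 were called higher and 506 lower, so 35.9% of called genes were higher, against 24.4% with total-count scaling, which called 6.32% of all genes. Without Srebp2WT replicate 1 or 3, 167 and 184 genes were called, and without Srebp2cKO replicate 6, 1487. Replicate 7 of Srebp2cKO and replicate 1 of Srebp2WT lay at opposite ends of the first principal component, which held 56.4% of the variance. Markers of other cell types varied, with at most 2 counts of Ms4a1 and 5 of Lyz2 per library and 0 of Ncr1, but 219 to 769 counts of Cd74 and 421 to 1299 of Cybb.

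Srebp2cKO Tregs had lower transcript levels of Osbpl3 and Gramd1b than Srebp2WT Tregs, and 0 of the 10 genes were called higher in edgeR. Osbpl3 fell by 0.59 and Gramd1b by 0.39 on the log2 scale, or to 0.666 and 0.765 times the Srebp2WT level. The other 8 genes did not pass the threshold, with log2 fold changes from -0.48 for Osbpl5 to 0.30 for Osbpl8. Of all tested genes, 6.61% were called in either direction, 4.24% lower and 2.37% higher. Among the 10 genes, 2 were called lower. In 5 of the 10 genes the libraries of the genotypes did not overlap, against 31.5% of all tested genes. At an unadjusted p under 0.05 there were 6 of the 10, 4 of them lower and 2 higher, against 29.1% of all tested genes. Limma-voom also called 0 of the 10 higher, and DESeq2 called 1, Osbpl8. With 1 library left out, 0 to 4 of the 10 were called lower. The count was 0 without Srebp2cKO replicate 7 or Srebp2WT replicate 1 or 3, fits that called 2.46%, 1.39% and 1.53% of all tested genes. It was 4 without Srebp2cKO replicate 6, a fit that called 12.3% of all tested genes. Osbpl5 and Osbpl7 then also passed, and Osbpl9 passed as higher. The median log2 fold change was -0.04 over the 10 genes and -0.00015 over all tested genes. Values per gene below are CPM scaled with TMM factors, which adjust for composition, as mean ± SD with n = 3 libraries in each genotype.

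**Figure D1:**
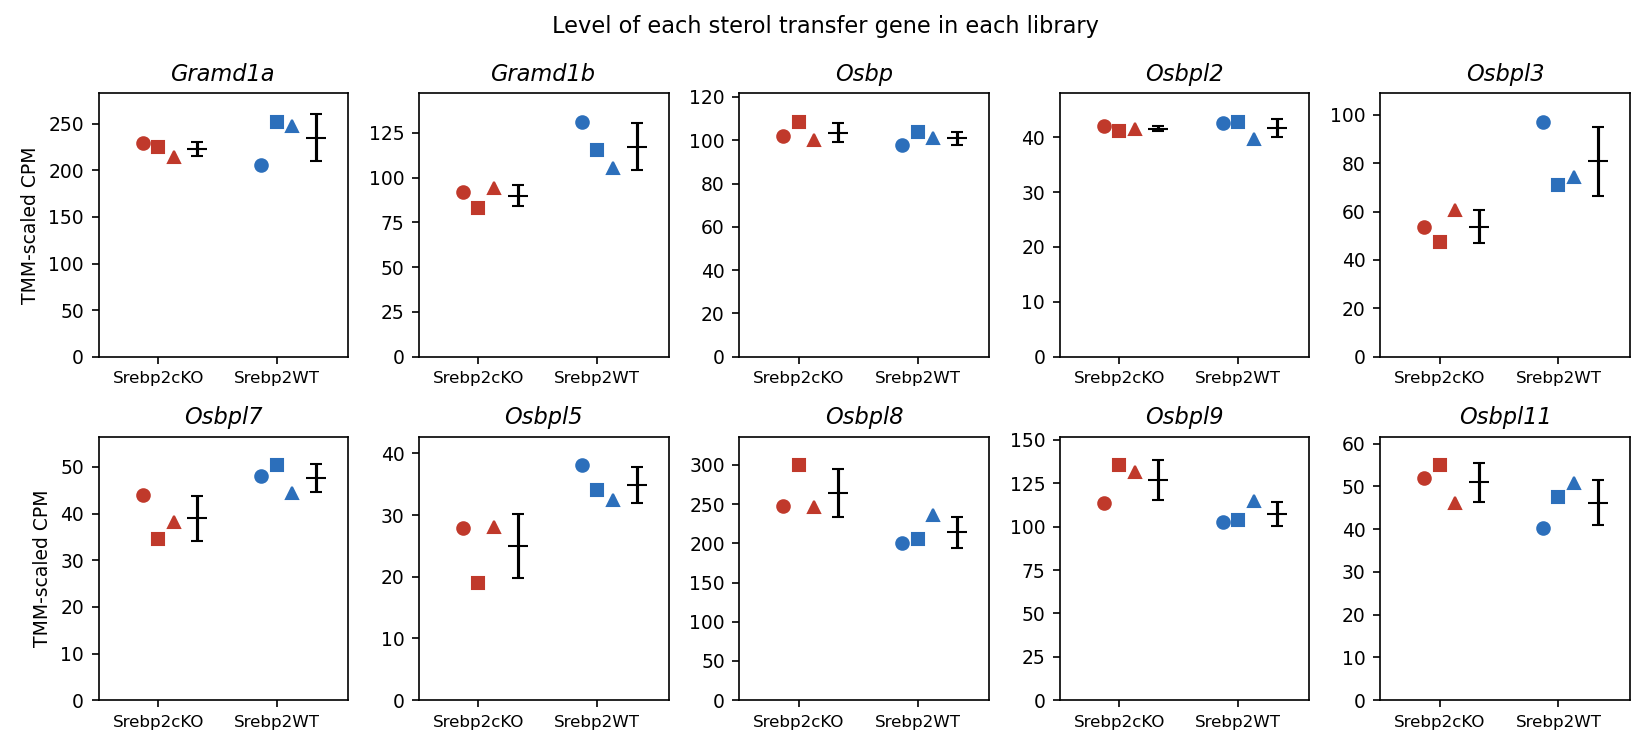
Level of each of the 10 genes in each library, in TMM-scaled CPM on axes from 0, with Srebp2cKO libraries left (red) and Srebp2WT libraries right (blue). Circles, squares and triangles are replicates 6, 7 and 8 or 1, 3 and 5, and bars give mean ± SD. All Srebp2cKO libraries lie below all Srebp2WT libraries for Osbpl3, Gramd1b, Osbpl5 and Osbpl7, and above them for Osbpl8.

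Osbpl3 encodes ORP3, an ORP that in human cells binds VAP and the small GTPase R-Ras and affects cell adhesion. The gene lies on chromosome 6 from 50293330 to 50456201 on the minus strand (GRCm38, as are all positions here). Osbpl3 had 53.5, 47.3 and 60.7 CPM in Srebp2cKO libraries 6, 7 and 8, against 97.2, 71.1 and 74.3 CPM in Srebp2WT libraries 1, 3 and 5. The genotypes did not overlap, and Srebp2WT replicate 1 stood above the other Srebp2WT libraries. Means were 53.8 ± 6.71 CPM in Srebp2cKO and 80.8 ± 14.3 CPM in Srebp2WT. Its log2 fold change was -0.59 (SE 0.13; 95% confidence interval -0.88 to -0.30, adjusted p = 0.0298). DESeq2 and limma-voom, which called 11.7% and 6.55% of all genes, also called Osbpl3 and Gramd1b lower. In these bulk libraries, fewer cells of a kind and less RNA per cell cannot be told apart. Without Srebp2WT replicate 1, the highest library, the log2 fold change was -0.43 and the call was lost (adjusted p = 0.112). It was also lost without Srebp2cKO replicate 7 (-0.51, adjusted p = 0.0854) and without Srebp2WT replicate 3 (-0.67, adjusted p = 0.0552).

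Osbpl7 encodes ORP7, a close relative of ORP3, and lies on chromosome 11 from 97050628 to 97068904. Its level was 44.0, 34.6 and 38.3 CPM in the Srebp2cKO libraries and 48.1, 50.4 and 44.5 CPM in the Srebp2WT libraries. The highest Srebp2cKO library came within 1 CPM of the lowest Srebp2WT library, although the groups did not overlap. The log2 fold change of -0.29 did not pass (SE 0.10, 95% interval -0.52 to -0.06, adjusted p = 0.104). Its exons share 5.42% of their merged length with a transcript on the opposite strand. The third gene of this branch, Osbpl6, is close to the detection limit, with 16, 22 and 26 counts in Srebp2cKO and 8, 24 and 12 in Srebp2WT.

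Gramd1b encodes Aster-B, whose gene is a target of the sterol-sensing LXR receptors in mouse macrophages. It lies on chromosome 9 from 40293233 to 40531383 on the minus strand. Gramd1b had 92.0, 83.2 and 94.3 CPM in Srebp2cKO libraries, against 131, 115 and 106 CPM in Srebp2WT libraries. Every Srebp2cKO library was lower than every Srebp2WT library. Means were 89.8 ± 5.88 CPM in Srebp2cKO and 117 ± 12.9 CPM in Srebp2WT, a log2 fold change of -0.39 (SE 0.09, 95% interval -0.60 to -0.18, adjusted p = 0.0392). The call was lost in 4 of the 6 fits that left out 1 library, namely without Srebp2cKO replicate 7 or 8 and without Srebp2WT replicate 1 or 3. Log2 fold changes in the 6 fits ran from -0.46 to -0.30 and adjusted p-values from 0.0245 to 0.169.

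Gramd1a encodes Aster-A, the other GRAMD1 protein with ample transcript in these cells, and lies on chromosome 7 from 31130127 to 31155896. It had 229, 225 and 215 CPM in Srebp2cKO libraries, and 206, 252 and 247 CPM in Srebp2WT libraries. The Srebp2cKO values fell inside the range of the Srebp2WT values. An antisense gene overlaps 8.02% of its merged exons. The log2 fold change was -0.08 (95% interval -0.27 to 0.12, adjusted p = 0.579), and it turned to 0.06 when the GC trend described below was removed. The interval leaves out a fall as large as the estimate for Gramd1b, but the difference between these genes was not tested. Within a library, Gramd1a per kilobase was 4.79, 5.20 and 4.38 times Gramd1b in Srebp2cKO and 3.02, 4.21 and 4.50 times in Srebp2WT, so the ratios overlapped. Gramd1c, for Aster-C, had only 81, 73 and 121 counts in Srebp2cKO and 156, 113 and 108 in Srebp2WT (log2 fold change -0.46, SE 0.20, adjusted p = 0.163).

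**Figure D2:**
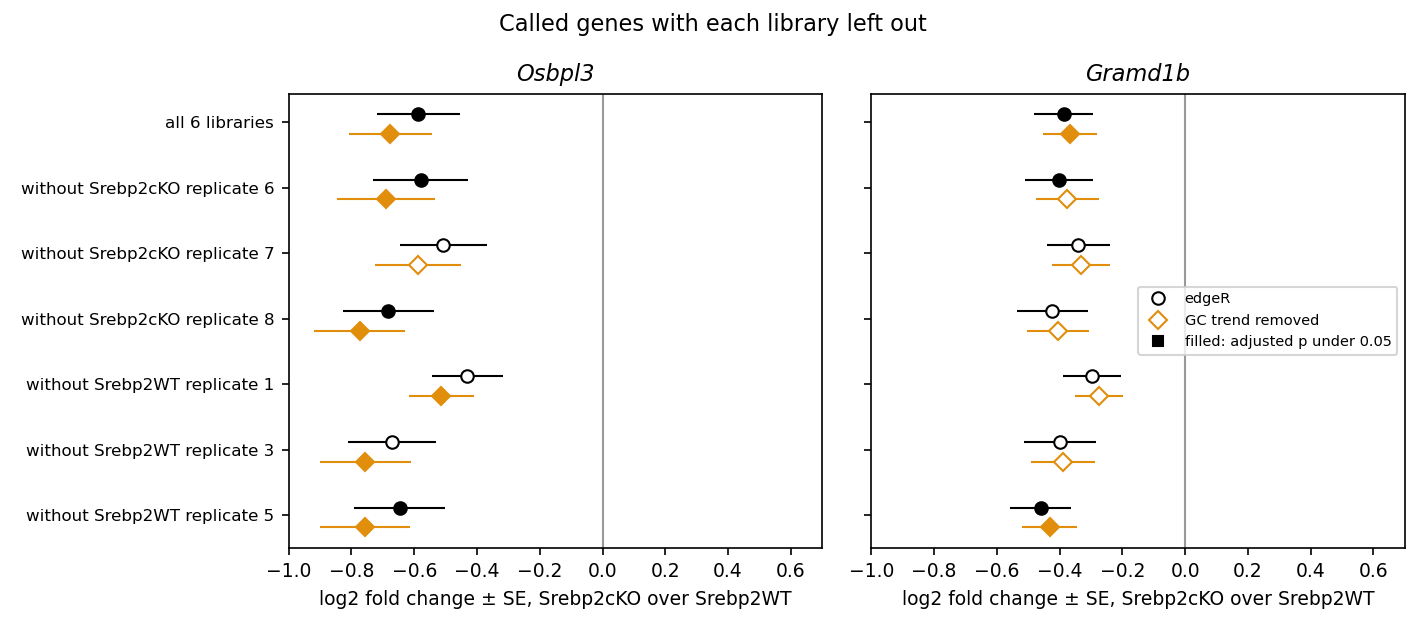
Log2 fold change ± SE of the called genes Osbpl3 and Gramd1b, Srebp2cKO over Srebp2WT, with all 6 libraries and with each left out, as fitted by edgeR (black circles) and after removal of the GC trend (orange diamonds). Filled symbols have an adjusted p under 0.05. All estimates are negative, from -0.77 to -0.43 for Osbpl3 and from -0.46 to -0.27 for Gramd1b.

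Osbpl5 and Osbpl8 encode ORP5 and ORP8, tail-anchored partners at contacts between the endoplasmic reticulum and the plasma membrane that exchange phosphatidylserine for PI4P. Osbpl5, on chromosome 7 from 143688762 to 143756985, had 27.9, 19.0 and 28.0 CPM in Srebp2cKO libraries and 38.1, 34.0 and 32.5 CPM in Srebp2WT libraries. All Srebp2cKO values were lower, with replicate 7 the lowest. The log2 fold change of -0.48 did not pass in edgeR (SE 0.14, 95% interval -0.80 to -0.16, adjusted p = 0.0704). DESeq2 called it lower (adjusted p = 0.0246).

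Osbpl8 lies on chromosome 10 from 111164752 to 111297249. Its level was 247, 300 and 246 CPM in the Srebp2cKO libraries and 200, 206 and 236 CPM in the Srebp2WT libraries. The values did not overlap, and replicate 7 was the highest Srebp2cKO library, as it was the lowest for Osbpl5. The log2 fold change of 0.30 did not pass in edgeR (SE 0.10, 95% interval 0.09 to 0.52, adjusted p = 0.0844), and DESeq2 called it higher (adjusted p = 0.0443). The ratio of Osbpl8 to Osbpl5 per kilobase, which does not depend on library scaling, was 4.63, 8.23 and 4.59 in Srebp2cKO and 2.74, 3.17 and 3.80 in Srebp2WT. All Srebp2cKO ratios were higher (5.82 ± 2.09 in Srebp2cKO and 3.24 ± 0.529 in Srebp2WT). That follows from the levels given above, as neither gene overlapped between the genotypes and they differed in opposite directions. The ratio is therefore not a separate result. Osbpl8 and Osbpl5 transcripts are far apart in GC content, at 40.1% and 56.5%, and fold changes of all genes ran with GC content as given below.

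Promoter sequences are shown for Osbpl3, the gene with the largest estimated fall of the 10, and for the partners Osbpl5 and Osbpl8, whose estimates had opposite signs. Each is the stretch upstream of the most upstream RefSeq start site (GRCm38.p6), 5′ to 3′ on the gene's strand, with bases in GENCODE exons left out. Capitals mark 3 kinds of motif. The E-box, a palindrome, was searched as CACGTG. The box named CCAAT was searched by those letters on both strands, and the GC box was searched as GGGCGG, also on both strands, so a capital run can be the reverse complement.
Osbpl3 (chr6:50456202-50456420, minus strand): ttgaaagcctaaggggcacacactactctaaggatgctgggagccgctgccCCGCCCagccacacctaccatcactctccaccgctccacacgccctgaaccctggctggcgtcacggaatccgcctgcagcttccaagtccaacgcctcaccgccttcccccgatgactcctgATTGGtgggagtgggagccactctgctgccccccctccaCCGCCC
Osbpl5 (chr7:143757009-143757258, minus strand): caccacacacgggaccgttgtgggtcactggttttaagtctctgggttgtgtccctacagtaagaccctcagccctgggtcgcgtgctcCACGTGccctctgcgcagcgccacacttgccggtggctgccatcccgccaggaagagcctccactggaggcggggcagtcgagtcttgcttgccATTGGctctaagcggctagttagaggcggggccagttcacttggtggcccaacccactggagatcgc
Osbpl8 (chr10:111164552-111164751, plus strand): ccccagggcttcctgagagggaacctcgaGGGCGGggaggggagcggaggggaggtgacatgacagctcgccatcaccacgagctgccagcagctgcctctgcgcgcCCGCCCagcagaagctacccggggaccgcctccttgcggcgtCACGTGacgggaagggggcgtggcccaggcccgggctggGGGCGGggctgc
Osbpl5 and Osbpl8 each hold 1 E-box, the palindrome that basic helix-loop-helix factors can bind. Of 12 RefSeq promoters of 9 of the 10 genes, these were the 2 with an E-box, which 7.15% of all 32851 promoters of the same length hold. The gene without a promoter entry was Gramd1b, called lower above, so it was not searched for any of these motifs. A sterol regulatory element, searched as TCACNCCAC on both strands, was in 0 of the 12 promoters and in 1.24% of all. CCAAT boxes were in 8 of the 12 and 37.4% of all, and GC boxes in 9 of the 12 and 35.7% of all. No motif overlapped another in the stretches shown. A match is a run of letters, not a measured binding site, and windows of this length hold only part of what can regulate a gene.

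Osbp encodes the founding protein of the family, which carries cholesterol from the endoplasmic reticulum to the Golgi in exchange for PI4P, and lies on chromosome 19 from 11965941 to 11994112. It had 102, 109 and 100.04 CPM in Srebp2cKO libraries and 98.0, 104 and 101 CPM in Srebp2WT libraries. The ranges overlapped almost fully, and the log2 fold change was 0.04 (95% interval -0.12 to 0.20, adjusted p = 0.768). Osbpl2 encodes ORP2, which in human cells delivers cholesterol to the plasma membrane, and lies on chromosome 2 from 180119306 to 180162680. It had 42.0, 41.1 and 41.5 CPM in Srebp2cKO and 42.5, 42.8 and 39.7 CPM in Srebp2WT, a log2 fold change of -0.0061 (95% interval -0.18 to 0.17, adjusted p = 0.966). For both genes the interval leaves out a change of more than 0.20 on the log2 scale in either direction.

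Osbpl9 and Osbpl11 encode ORP9 and ORP11, which in human cells pair with each other at the Golgi. Osbpl9, on chromosome 4 from 109061145 to 109202272, had 114, 135 and 132 CPM in Srebp2cKO and 103, 104 and 115 CPM in Srebp2WT. Srebp2cKO replicate 6 lay below the highest Srebp2WT library, and the log2 fold change of 0.24 did not pass (SE 0.09, 95% interval 0.05 to 0.44, adjusted p = 0.108). Of its merged exons, 9.04% overlap Nrd1 on the opposite strand, and the sources used here do not say whether counting used strand. Osbpl11, on chromosome 16 from 33185071 to 33243312, had 52.0, 55.0 and 46.1 CPM in Srebp2cKO and 40.4, 47.5 and 50.8 CPM in Srebp2WT. These values overlapped (log2 fold change 0.14, 95% interval -0.09 to 0.38, adjusted p = 0.401). The Osbpl9 to Osbpl11 ratio per kilobase also overlapped, at 1.82 ± 0.246 in Srebp2cKO and 1.69 ± 0.139 in Srebp2WT.

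**Figure D3:**
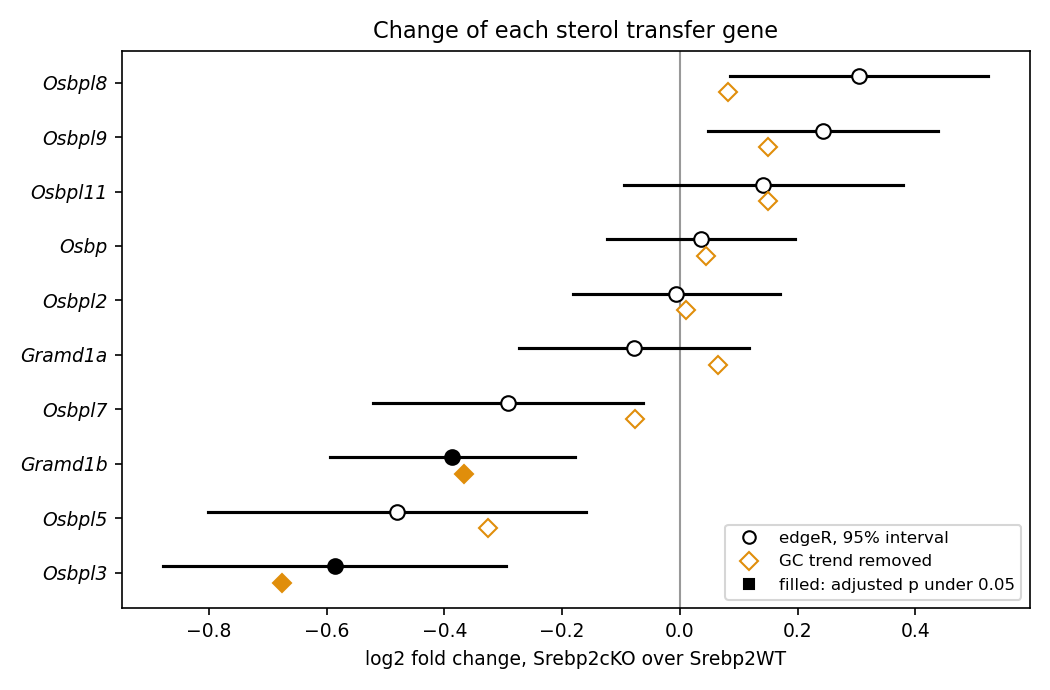
Log2 fold change of each of the 10 genes, Srebp2cKO over Srebp2WT, with the 95% interval from edgeR (circles and lines), and the estimate after removal of the GC trend (orange diamonds). Filled symbols have an adjusted p under 0.05, which are Osbpl3 and Gramd1b in both fits, while Osbpl7 and Osbpl8 lie at -0.29 and 0.30 in edgeR and at -0.08 and 0.08 with the trend removed.

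Fold changes in this series followed the GC content of transcripts, and the 10 genes span much of that range. Per 10 percentage points of GC content, log2 CPM relative to the mean of all libraries changed by 0.01, -0.25 and -0.12 in Srebp2cKO libraries and by 0.15, 0.18 and 0.02 in Srebp2WT libraries. Srebp2cKO replicate 7 and Srebp2WT replicate 3 lay at the ends of that range. Split into deciles of GC content, genes of decile 1, the lowest, had a median log2 fold change of 0.23, and those of decile 10 had -0.26. Osbpl8, at 40.1% GC, is in decile 1, and its 0.30 lies between that decile's quartiles of 0.11 and 0.33. Osbpl7, at 58.3% GC, is in decile 10, and its -0.29 lies between that decile's quartiles of -0.45 and -0.11. Osbpl9 (0.24) and Osbpl11 (0.14) lie just above the upper quartiles of their deciles, 0.23 and 0.10, while Osbpl5 (-0.48) lies below the lower quartile of genes of like GC content, which is -0.31. Osbpl3, at 46.0% GC, has genes around it with a median of 0.08 and a lower quartile of -0.06, and Gramd1b, at 51.0% GC, has genes with a median of -0.03 and a lower quartile of -0.16.

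When the GC trend was removed from each library, Osbpl3 (-0.68, SE 0.13, adjusted p = 0.0168) and Gramd1b (-0.37, SE 0.08, adjusted p = 0.0350) were again the genes called. In that fit 5.8% of all genes were called. Osbpl8 shrank to 0.08 (adjusted p = 0.492), Osbpl7 to -0.08 (adjusted p = 0.572), Osbpl9 to 0.15 (adjusted p = 0.228) and Osbpl5 to -0.33 (adjusted p = 0.141). After the correction Osbpl3 stood at 53.2, 44.9 and 58.5 CPM in Srebp2cKO and 102, 74.2 and 74.6 CPM in Srebp2WT, still without overlap. Osbpl8 then stood at 251, 254 and 228 CPM in Srebp2cKO and 224, 229 and 239 CPM in Srebp2WT, and its genotypes overlapped. With the correction and 1 library left out, Osbpl3 was called in 5 of 6 fits, all but the one without Srebp2cKO replicate 7. Gramd1b was called in 1 of 6, the one without Srebp2WT replicate 5. These fits called from 2.14% to 6.29% of all tested genes.

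**Figure D4:**
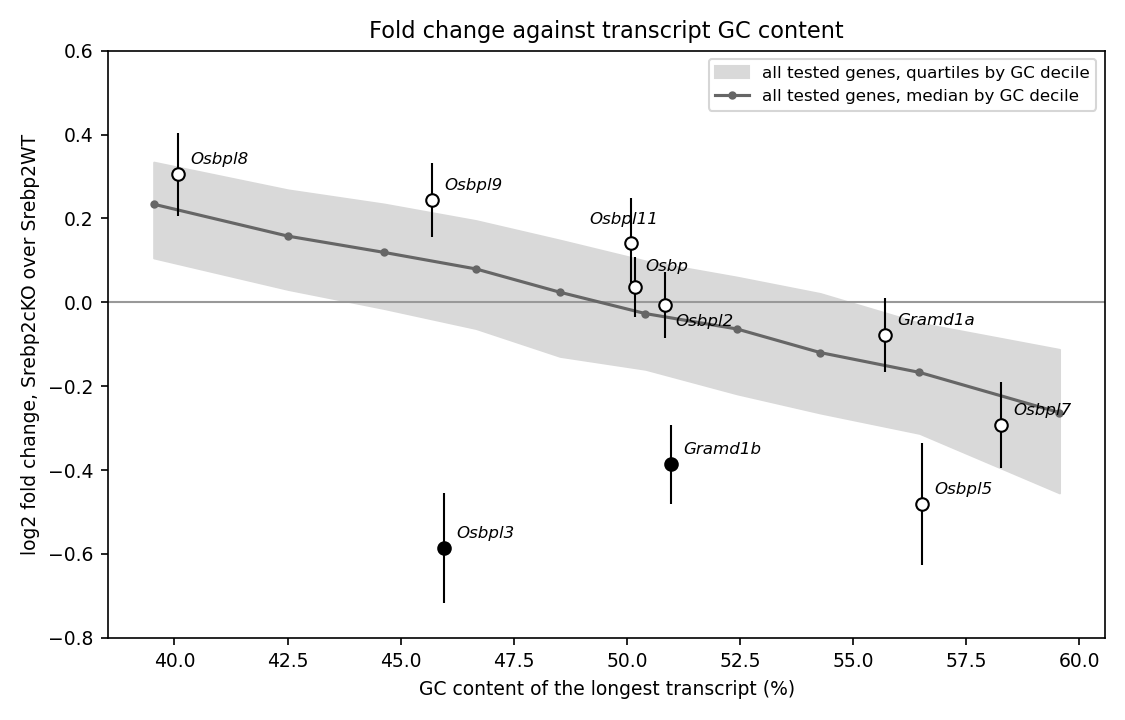
Log2 fold change, Srebp2cKO over Srebp2WT, against GC content of the longest transcript in percent. Points are the 10 genes with their SE (filled where called), and the line and band give the median and quartiles of all tested genes by decile of GC content. Osbpl3, Gramd1b and Osbpl5 lie below the quartiles of their decile, Osbpl9 and Osbpl11 above them and the other 5 genes between them.

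Summed markers of some other cell types also differed between the genotypes, here in CPM without TMM scaling. The 6 B cell markers summed to 25.8 to 34.5 CPM in Srebp2cKO and 56.4 to 79.4 CPM in Srebp2WT, with Cd79b, Cd74 and Cd22 called lower and Cd79a not called. The 7 myeloid markers summed to 37.1 to 43.2 CPM in Srebp2cKO and 53.9 to 88.3 CPM in Srebp2WT, and most of it was Cybb, with 421 to 626 counts in Srebp2cKO and 719 to 1299 in Srebp2WT. Cybb was called lower, and the other 2 tested myeloid markers had positive log2 fold changes that did not pass (Itgam 1.07, adjusted p = 0.108, and Cd68 0.35, adjusted p = 0.270). The 4 natural killer cell markers summed to 8.18 to 9.28 CPM in Srebp2cKO and 10.7 to 17.7 CPM in Srebp2WT, with Klrb1c called lower of the 2 tested. Srebp2WT replicate 1 was the highest library for each of these sums, and also for Osbpl3 and Gramd1b. The sum of the 6 stromal and endothelial markers was higher in Srebp2cKO, at 217 to 231 CPM in Srebp2cKO and 168 to 181 CPM in Srebp2WT. Pecam1, which was called higher (0.39, adjusted p = 0.0139), made up nearly all of it. Col1a1, the other tested marker of this list, had a negative log2 fold change that did not pass (-0.75, adjusted p = 0.234). The 2 CD8 T cell markers summed to 8.70 to 10.3 CPM in Srebp2cKO and 7.01 to 7.59 CPM in Srebp2WT. The 4 plasma cell markers summed to 60.1 to 64.3 CPM in Srebp2cKO and 63.7 to 66.9 CPM in Srebp2WT. Nearly all of that sum was Xbp1, which was not called (-0.03, adjusted p = 0.830), while Jchain, Sdc1 and Mzb1 had too few counts to test. The 6 erythroid and platelet markers summed to at most 0.580 CPM in Srebp2cKO and 0.193 CPM in Srebp2WT. The part of such cells in the results for Osbpl3 and Gramd1b was not tested.

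Levels can be compared between genes only per length, and were taken as TMM-scaled CPM per kilobase of merged exons. Gramd1a was the most abundant of the 10 at 42.5 ± 1.43 in Srebp2cKO and 44.9 ± 4.82 in Srebp2WT, higher than 92.7% of tested genes. Osbpl8 followed at 28.1 ± 3.27 in Srebp2cKO and 22.8 ± 2.05 in Srebp2WT, and Osbp at 23.1 ± 0.999 in Srebp2cKO and 22.5 ± 0.666 in Srebp2WT. These neighbours did not overlap in Srebp2cKO but did in Srebp2WT. Osbpl9 came next at 18.1 ± 1.67 in Srebp2cKO and 15.3 ± 0.967 in Srebp2WT, apart from its neighbours in both genotypes. The other 6 genes lay between 5.09 and 10.02 in Srebp2cKO and between 7.09 and 11.7 in Srebp2WT, near the median of 7.16 over all tested genes.

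Within that lower group the order differed between the genotypes. Gramd1b had rank 7 in Srebp2cKO (8.92 ± 0.583) and rank 5 in Srebp2WT (11.7 ± 1.28), and compared with Osbpl2 its libraries lay below in Srebp2cKO and above in Srebp2WT, without overlap in either. Osbpl3 stood at 5.97 ± 0.744 in Srebp2cKO, where it overlapped Osbpl7 and Osbpl5, and at 8.96 ± 1.58 in Srebp2WT, where it overlapped Osbpl7, Osbpl11, Osbpl2 and Gramd1b. Osbpl5 was the lowest of the 10 in both genotypes, at 5.09 ± 1.05 in Srebp2cKO and 7.09 ± 0.590 in Srebp2WT. Summed over the 10 genes, the level per kilobase was 158 ± 3.48 in Srebp2cKO and 160.3 ± 4.65 in Srebp2WT. Osbpl3 made up 3.78% of that sum in Srebp2cKO and 5.61% in Srebp2WT, Gramd1b 5.64% in Srebp2cKO and 7.29% in Srebp2WT, and Osbpl8 17.7% in Srebp2cKO and 14.2% in Srebp2WT. With the longest transcript as the length, Gramd1a stayed first and Osbpl5 last, while Osbpl9 moved to rank 2.

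**Figure D5:**
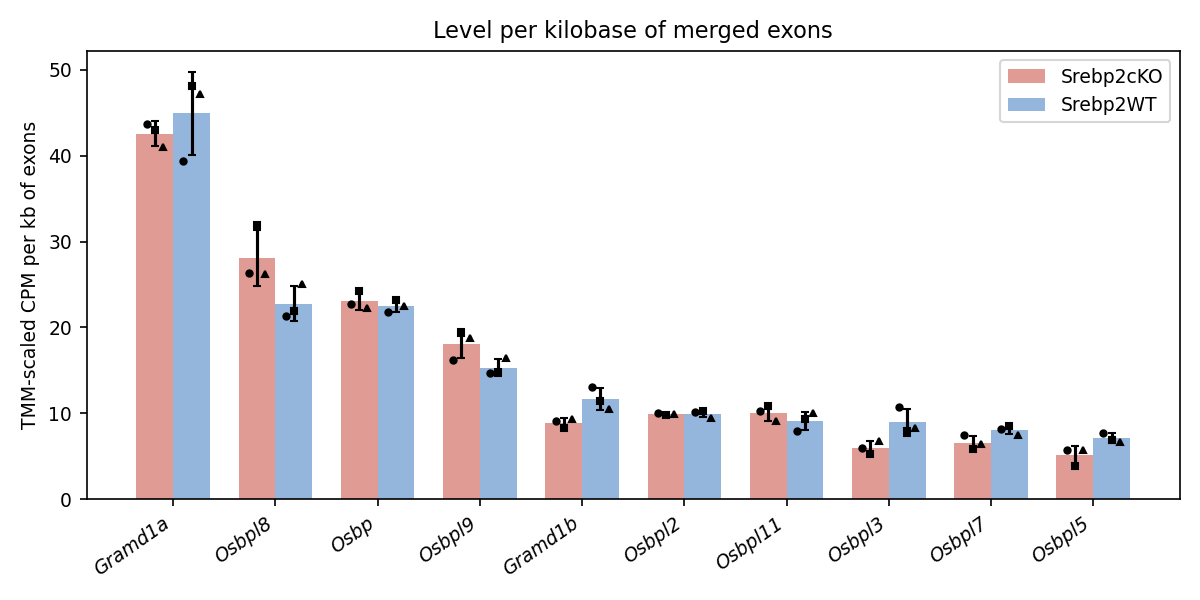
Level of each of the 10 genes per kilobase of merged exons (TMM-scaled CPM per kb), ordered by the Srebp2WT mean, with Srebp2cKO left (red) and Srebp2WT right (blue) in each pair. Bars are means from 0, error bars SD and points the 3 libraries. Gramd1a leads with 42.5 in Srebp2cKO and 44.9 in Srebp2WT, and Osbpl5 is lowest with 5.09 in Srebp2cKO and 7.09 in Srebp2WT.

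Further ORP and Gramd genes, not all of them of the GRAMD1 family, were thinly expressed or did not pass. Of these 8 genes, 3 (Osbp2, Osbpl10 and Gramd2) had 0 counts in every library and Osbpl1a had 7 to 15. The 4 tested were Osbpl6, Gramd1c, Gramd3 and Gramd4, and 0 were called in edgeR, DESeq2 or limma-voom. At an unadjusted p under 0.05 there was 1 of the 4, Gramd1c, against 29.1% of all tested genes. Gramd3, which has a GRAM domain but no sterol-binding domain, had 90.1 ± 8.59 CPM in Srebp2cKO and 77.6 ± 8.28 CPM in Srebp2WT (log2 fold change 0.22, adjusted p = 0.186). Gramd4 had 171 ± 13.2 CPM in Srebp2cKO and 166 ± 5.87 CPM in Srebp2WT (0.04, adjusted p = 0.751).

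The share of related genes called, those for partners of these proteins among them, was near that of all tested genes. Of 58 tested genes in the related lists, 1 was called higher and 3 lower, which is 6.9% against 6.61% of all genes. The 5 endoplasmic reticulum tethers held 0 called genes in edgeR, DESeq2 or limma-voom (median log2 fold change 0.15). At an unadjusted p under 0.05 there was 1 of the 5, against 29.1% of all tested genes. That was Vapa, the main VAP anchor of ORPs, at 81.9 ± 7.23 CPM in Srebp2cKO and 68.9 ± 5.19 CPM in Srebp2WT (0.25, adjusted p = 0.111). Next came Mospd2 (-0.22, adjusted p = 0.247) and Mospd3 (0.25, adjusted p = 0.257), and both were called after removal of the GC trend (-0.49, adjusted p = 0.0198, and 0.51, adjusted p = 0.0306). Among 17 tested genes for enzymes of PI4P and its bisphosphate product and their adaptors, Fam126b rose (median of the list -0.05). At an unadjusted p under 0.05 there were 3 of the 17, against 29.1% of all tested genes. Fam126b, an adaptor of the plasma membrane PI4-kinase complex, had 59.1 ± 2.51 CPM in Srebp2cKO and 46.5 ± 1.24 CPM in Srebp2WT (0.34, SE 0.08, adjusted p = 0.0315). After removal of the GC trend it was at 0.06 (adjusted p = 0.667), and the call was also lost without Srebp2cKO replicate 7 or 8 or Srebp2WT replicate 1 or 3 (adjusted p = 0.0903 to 0.138). Efr3a, which anchors the same complex, had a log2 fold change of 0.27 (adjusted p = 0.0584 in edgeR and 0.0221 in DESeq2), and Inpp5f, a phosphoinositide phosphatase, of -0.17 (adjusted p = 0.160).

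Among 8 carriers of the StAR-related and lysosomal group, Stard4 fell (median of the list -0.14). At an unadjusted p under 0.05 there were 4 of the 8, against 29.1% of all tested genes. Stard4, a soluble sterol carrier and a known SREBP2 target, had 270, 329 and 360 counts in Srebp2cKO libraries and 495, 450 and 495 in Srebp2WT libraries. Its level was 20.7 ± 0.747 CPM in Srebp2cKO and 31.2 ± 2.26 CPM in Srebp2WT, without overlap (-0.59, SE 0.10, adjusted p = 0.00938). Its estimate was the same size as that of Osbpl3, and it was called whichever of the 6 libraries was left out (adjusted p = 0.0206 to 0.0462). Npc2, which binds cholesterol inside lysosomes, was at 0.28 (adjusted p = 0.0529 in edgeR, 0.0195 in DESeq2 and 0.0232 after removal of the GC trend), and Tmem97, which binds the lysosomal transporter NPC1, was at -0.96 on few counts (24, 15 and 23 in Srebp2cKO and 49, 39 and 34 in Srebp2WT, adjusted p = 0.0763).

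Of 21 other lipid carriers at contacts, 2 fell and 0 rose in edgeR (median -0.04). At an unadjusted p under 0.05 there were 6 of the 21, against 29.1% of all tested genes. DESeq2 and edgeR with no filter, which called 11.7% and 7.39% of all tested genes, each called 3 lower and 1, Pitpnc1, higher. Stard10, a phospholipid carrier, had 4.71 ± 0.839 CPM in Srebp2cKO and 8.76 ± 1.43 CPM in Srebp2WT (-0.89, SE 0.20, adjusted p = 0.0289). Atg2a, a bridge-like lipid carrier of autophagy, had 64.7 ± 9.71 CPM in Srebp2cKO and 90.7 ± 8.26 CPM in Srebp2WT (-0.49, SE 0.11, adjusted p = 0.0338). Both are rich in GC, at 57.9% and 60.0%, and neither was called after removal of the GC trend, when Stard10 was at -0.67 (adjusted p = 0.0892) and Atg2a at -0.23 (adjusted p = 0.0747). Without Srebp2cKO replicate 8 or Srebp2WT replicate 1 or 3, and for Atg2a also without Srebp2cKO replicate 7, the calls were lost (adjusted p = 0.0697 to 0.137). Pitpnc1, a phosphatidylinositol transfer protein, had a log2 fold change of 0.33 (adjusted p = 0.0690 in edgeR, 0.0235 in DESeq2 and 0.0456 with no filter). The 3 genes of phosphatidylserine synthesis held 0 called genes in edgeR, DESeq2 or limma-voom. At an unadjusted p under 0.05 there was 1 of the 3, Ptdss2 (-0.41, adjusted p = 0.127), against 29.1% of all tested genes. Pisd (-0.12) and Ptdss1 (-0.02) had adjusted p = 0.357 and 0.896.

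Over the 6 libraries, the genes whose log2 CPM ran most like that of Osbpl3, among 8868 genes with a mean log2 CPM of at least 3, were Inppl1, Fnbp1, Tmem2, Rilpl2 and Parp9. Pearson correlations were 0.99 for each, across libraries that share the difference between genotypes. Genes picked this way share the direction of Osbpl3, so their lower levels in Srebp2cKO are not a separate result. Inppl1, the inositol phosphatase SHIP2, was called lower (-0.64, adjusted p = 0.0260), as were Tmem2 (-0.92, adjusted p = 0.0184) and Rilpl2 (-0.84, adjusted p = 0.0128). Fnbp1 (-0.16, adjusted p = 0.195) and Parp9 (-0.13, adjusted p = 0.224) followed the same order of libraries with smaller estimates.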

How the data were processed

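Per the labels' protocols, RNA of mouse spleen and lymph node Tregs was isolated (Qiagen RNeasy), and sequencing libraries were prepared after removal of ribosomal RNA (KAPA HyperPrep with RiboErase). The authors deposited raw counts per gene symbol for 6 libraries, 3 of each genotype, with columns matched to samples by title. HISAT2 2.2.1, mm10 and Cell Ranger are named, with no role, per the submitters' processing notes. The sources used here do not give the counting tool, annotation or strand setting, and counts of overlapping genes are therefore uncertain.

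Genes were kept with filterByExpr (11932 of 24421), scaled with TMM and tested with the quasi-likelihood test of edgeR 4.0.16 in R 4.3.3, without covariates, at a false discovery rate of 0.05. In data simulated from these libraries, 89% of changes of 1 and 57% of changes of 0.5 on the log2 scale were recovered, with 8 false calls. The simulated counts were drawn gene by gene, at the spread typical of each gene's level, and held no GC trend. Recovery and false calls in the real libraries can therefore differ. Libraries of a genotype differed by more than sampling noise. Alternatives were DESeq2 1.42.0, limma-voom (limma 3.58.1), scaling by RLE, upper quartile or total count, robust dispersion, no filter, at least 1 CPM in 3 libraries, a rate of 0.1, GC correction (per library, a loess fit of span 0.3 of log2 CPM against GC content of the transcript, taken off as offsets), and leaving out each library. The GC correction together with leaving out a library was added after seeing the data. Positions, lengths and GC content came from GENCODE M21 (GRCm38) and promoters from RefSeq.

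The 10 genes, the gene lists and the tests were chosen with earlier results of these data known. Named genes were Srebf2, Foxp3, the 10 genes, the detected further ORP and Gramd genes and, of each other related list, every called gene plus the 3 with the smallest p. Also named were the 5 genes with a mean log2 CPM of at least 3 most correlated with the gene of smallest p among the 10. The markers named beside the sums were chosen after their values were seen.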

Additional observations from a re-analysis of the deposited data

How the results depend on the processing

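Osbpl3 and Gramd1b were lower in Srebp2cKO under every setting tried, and their calls held under each scaling, DESeq2, limma-voom, robust dispersion, both filters and removal of the GC trend, but not when some single libraries were left out. DESeq2, no filter and a false discovery rate of 0.1 each called 3 of the 10 genes lower. DESeq2 and the rate of 0.1 each called 1 higher. In that order, these settings called 11.7%, 7.39% and 15.9% of all tested genes, against 6.61% in the edgeR fit used above. Among all genes, those called higher numbered 184 with total-count scaling, 618 with DESeq2, 473 with no filter and 861 at a rate of 0.1, and those called lower 774 with DESeq2 and 1032 at a rate of 0.1. Of the related lists, 4 genes were called higher with DESeq2, 3 with no filter, 2 after removal of the GC trend and 4 at a rate of 0.1, and 2 lower after removal of the GC trend and 5 at a rate of 0.1. With 1 library left out, with or without the GC trend, calls among all genes ranged from 29 to 700 higher and from 135 to 787 lower, among the 10 genes from 0 to 1 and from 0 to 4, and in the related lists from 0 to 2 and from 1 to 4. The cause was not tested.

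Removal of the GC trend turned the sign of uncalled estimates for Foxp3 (0.066), Osbpl2 (0.011) and Gramd1a (0.065). Across fits without 1 library, with or without the GC trend, uncalled estimates of both signs were seen for Osbp (-0.0055 to 0.063), Osbpl2 (-0.042 to 0.029) and Gramd1a (-0.16 to 0.12), and with the trend kept for Gramd4 (-0.022 to 0.073) and Ptdss1 (-0.075 to 0.017). No paired analysis was possible because the genotypes share no replicate number. With 3 libraries of each genotype, precision was limited most for thinly counted genes such as Osbpl6.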
